A study of Mus musculus with 10 samples.

Results

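The genes described here are 10 plasma membrane transporters, 3 for glucose (*Slc2a1*, *Slc2a3* and *Slc2a4*) and 7 for amino acids or their heavy chain (*Slc3a2*, *Slc7a5*, *Slc7a11*, *Slc7a1*, *Slc1a5*, *Slc38a1* and *Slc38a2*). They were picked by symbol, with earlier results of these data known but by a rule that uses no measured value, from the 55359 genes of the deposited table. C2C12 is a mouse myoblast line that fuses into myotubes in low serum. The cells were transfected with a control siRNA (si-Control, 5 libraries) or with an siRNA against *Fndc1* (si-*Fndc1*, 5 libraries), and their RNA was sequenced. According to the labels both groups received 100 nM siRNA and were then kept for 4 days in high-glucose differentiation medium with horse serum. Each siRNA group came from the same cell line, no second siRNA was in the data, and the labels do not say whether the libraries of a group came from separate cultures. *Fndc1* encodes a secreted protein with fibronectin type III domains.

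Glucose enters muscle cells down its gradient through GLUT proteins. GLUT1 (*Slc2a1*) is the basal carrier of cultured myoblasts, GLUT3 (*Slc2a3*) is best known from neurons, and GLUT4 (*Slc2a4*) is the carrier of mature muscle that insulin brings from internal vesicles to the surface. Large neutral amino acids enter through LAT1 (*Slc7a5*), an exchanger that reaches the membrane only when bound to the heavy chain 4F2hc (*Slc3a2*). The same heavy chain carries xCT (*Slc7a11*), which imports cystine in exchange for glutamate. CAT1 (*Slc7a1*) takes up arginine and lysine, ASCT2 (*Slc1a5*) exchanges glutamine and other small neutral amino acids, and SNAT1 (*Slc38a1*) and SNAT2 (*Slc38a2*) import glutamine and alanine with sodium. Transcription of several of these genes is known to respond to amino acid shortage through ATF4, to oxidative stress through NRF2 and to low oxygen through HIF-1.

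Promoter sequence from RefSeq, taken from 250 bases before to 50 bases after the start site in GRCm38.p6, was at hand for 5 of the 10 genes, with 6 start sites. It was searched on both strands for the core of the ATF4-bound amino acid response element (TGATGNAA), of the NRF2-bound antioxidant response element (TGACNNNGC) and of the HIF-1-bound hypoxia response element (ACGTG). The stretches below are examples of these letters in the windows of 3 of the genes, with the match in capitals and positions counted from the start site. They were picked with the levels of the genes known, and matches in *Slc7a1* and *Slc38a2* are given by position only.
*Slc7a11*, chr3:50443633-50443699, minus strand: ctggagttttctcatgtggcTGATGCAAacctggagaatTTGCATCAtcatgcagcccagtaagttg
*Slc2a1*, chr4:119108689-119108733, plus strand: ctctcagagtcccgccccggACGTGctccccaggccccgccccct
*Slc3a2*, chr19:8714037-8714081, minus strand: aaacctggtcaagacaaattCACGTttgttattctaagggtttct

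The *Slc7a11* stretch holds 2 matches to the amino acid response core that face each other with 11 bases between them, the first at -66 and the second, on the opposite strand, at -47. Of 32851 mouse promoter windows of this length, 3.97% hold this core. The *Slc2a1* stretch holds the hypoxia core at -36 and the *Slc3a2* stretch holds it on the opposite strand at -164. That core occurs in 19.62% of the windows. The antioxidant core, present in 12.39% of the windows, was matched at -11 of *Slc7a1* on the opposite strand and at -27 of *Slc38a2*. These are matches of letters only, and none of the measurements here tested binding.

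The libraries held 66771605 to 75995168 counts in si-Control, against 56332844 to 72839369 in si-*Fndc1*. Levels are given as the deposited FPKM (counts scaled to transcript length and library size), with the SD over 5 libraries. Differences are log2 fold changes of si-*Fndc1* over si-Control with their standard error (SE) from edgeR's quasi-likelihood test on the counts, adjusted by Benjamini-Hochberg over the 13548 genes whose FPKM averaged 0.5 or more. A gene was called at an adjusted p under 0.05, and 34.4% of the tested genes were called, 17.2% lower and 17.3% higher in si-*Fndc1*. *Fndc1* itself (ENSMUSG00000071984, chr17:7957401-8046134) measured 26.7, 24.7, 28.7, 29.6 and 29.2 FPKM in si-Control replicates 1 to 5 and 20.4, 23.5, 20.8, 21.1 and 18.7 in si-*Fndc1*. The groups did not overlap, and *Fndc1* fell by 0.40 on the log2 scale (SE 0.066, adjusted p = 0.000934 in edgeR). Across 11185 genes with a known GC content the log2 fold change ran against it (Spearman's rho -0.525; genes share libraries and do not count as replicates). All calls were therefore also made with an offset for GC content and length per library, under which the call of *Fndc1* was lost (-0.07, adjusted p = 0.3005). The myotube markers were high in both groups, with a summed level of 3884 to 4367 FPKM in si-Control, against 3618 to 4320 in si-*Fndc1*.

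Of the 10 transporters, 8 passed the filter on low levels and were tested, and *Slc2a3* and *Slc2a4* did not pass it. After *Fndc1* knockdown 5 of the 8 fell (*Slc7a5*, *Slc7a1*, *Slc1a5*, *Slc38a1* and *Slc2a1*), 0 rose and 3 (*Slc3a2*, *Slc7a11* and *Slc38a2*) were not called. Set against this, 17.2% of all tested genes were called lower. In 4 of the 8 every si-*Fndc1* library was below every si-Control library in FPKM, which held for 13.0% of all tested genes. The median log2 fold change of the 8 was -0.26, and that of all tested genes was 0.00. With the offset, 2 of the 8 (*Slc7a5* and *Slc38a1*) were called lower, against 12.2% of the genes fitted that way, and the median of the 8 was -0.12 against -0.01 for all of them. In these bulk libraries fewer cells of a type and less RNA per cell cannot be told apart.

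**Figure D1:**
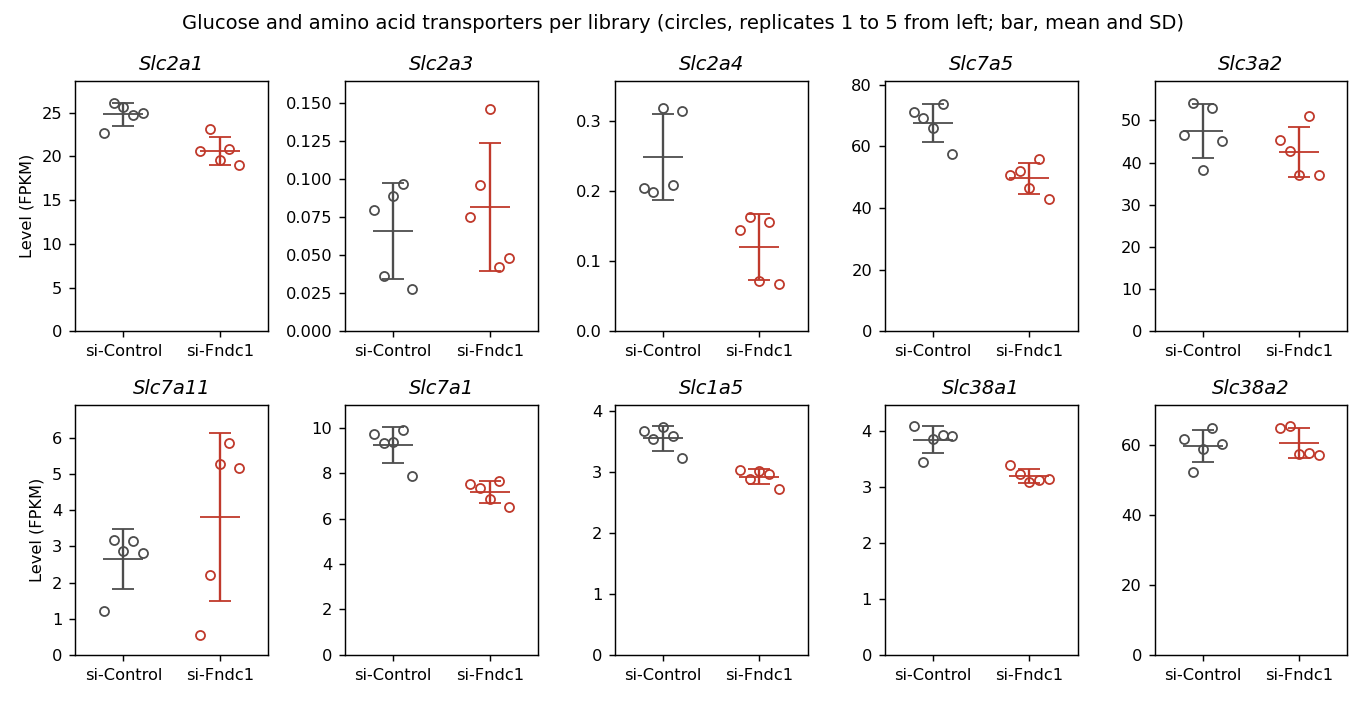
Level of each transporter in FPKM (vertical axis, starting at 0) in the 5 si-Control (grey) and 5 si-Fndc1 (red) libraries, with circles for libraries and a bar for the mean and SD. The groups do not overlap for Slc2a4, Slc7a5, Slc7a1, Slc1a5 and Slc38a1, and Slc7a11 spreads over 10.8-fold within si-Fndc1.

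In si-Control the highest level was that of *Slc7a5*, followed by *Slc38a2*, *Slc3a2*, *Slc2a1*, *Slc7a1*, *Slc38a1*, *Slc1a5*, *Slc7a11*, *Slc2a4* and *Slc2a3*, all per transcript length. Neighbours in this order overlapped between libraries for *Slc7a5* and *Slc38a2*, for *Slc38a2* and *Slc3a2*, and for *Slc38a1* and *Slc1a5*. In si-*Fndc1* the highest mean was that of *Slc38a2*, and *Slc7a11* stood before *Slc38a1*. Overlapping neighbours there were *Slc7a5* and *Slc3a2*, *Slc7a11* and *Slc38a1*, and *Slc2a4* and *Slc2a3*. Over all 10 libraries *Slc38a2*, *Slc7a5* and *Slc3a2* ranked above 94.8%, 94.6% and 92.8% of the tested genes in mean FPKM, whereas *Slc7a11* ranked above 36.8%.

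The highest of the 3 glucose carriers was *Slc2a1* (ENSMUSG00000028645, chr4:118965908-118995180, coordinates of the deposited table, for which the submitters' processing notes name GRCm39). It measured 22.7, 26.1, 25.7, 24.7 and 25.0 FPKM in si-Control and 20.6, 23.2, 19.6, 20.9 and 19.0 in si-*Fndc1*. Of the si-*Fndc1* libraries 4 lay below every si-Control library, and replicate 2 reached the si-Control range. The mean was 24.9 ± 1.31 (SD, n = 5) in si-Control and 20.7 ± 1.60 (SD, n = 5) in si-*Fndc1*, which is 0.832 of the control level (exact permutation p = 0.01587, two-sided as all such tests here). *Slc2a1* fell by 0.26 on the log2 scale (SE 0.058, adjusted p = 0.005573 in edgeR). With the offset for GC content and length the call was lost at -0.14 (adjusted p = 0.09879).

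*Slc2a4* (ENSMUSG00000018566, chr11:69833365-69839001) was present at a low level although the cells carried abundant muscle actin (*Acta1*, 1898 ± 90.8 FPKM in si-Control, SD, n = 5). Its counts were 61, 55, 88, 60 and 82 in si-Control and 40, 47, 21, 45 and 15 in si-*Fndc1*. These correspond to 0.205, 0.199, 0.319, 0.209 and 0.315 FPKM in si-Control, and in si-*Fndc1* to 0.145, 0.163, 0.0716, 0.157 and 0.0679. Every si-*Fndc1* library was below every si-Control library, and replicates 3 and 5 were the lowest. The mean was 0.249 ± 0.0620 (SD, n = 5) in si-Control and 0.121 ± 0.0471 (SD, n = 5) in si-*Fndc1*, that is 0.485 of the control level, and the exact permutation p of 0.007937 is the smallest that 5 against 5 libraries allow. Since *Slc2a4* was below the filter it had no call across all genes, and when edgeR was run without the filter its log2 fold change was -1.002 with an adjusted p of 0.05054. *Slc2a4* was therefore not called, and a value corrected for GC content was not computed for it.

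*Slc2a3* (ENSMUSG00000003153, chr6:122704768-122756916) was the lowest of the 10, with 16 to 84 counts per library. It measured 0.0793, 0.0363, 0.0885, 0.0965 and 0.0279 FPKM in si-Control and 0.0751, 0.0958, 0.146, 0.0422 and 0.0479 in si-*Fndc1*. The groups overlapped over most of their range, and the means of 0.0657 ± 0.0314 and 0.0814 ± 0.0421 (SD, n = 5 each) gave an exact permutation p of 0.4921. The libraries of a group varied by 47.8% and 51.7% of the *Slc2a3* mean (SD over mean), more than the groups differed.

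As shares of the FPKM summed over these 3 carriers, *Slc2a1* made up 98.75% ± 0.244 in si-Control and 99.04% ± 0.209 in si-*Fndc1* (SD, n = 5 each). The *Slc2a4* share was 0.989% ± 0.229 and 0.570% ± 0.195 (SD, n = 5 each), without overlap between the groups (exact permutation p = 0.007937, adjusted p = 0.01852 over the 7 ratios tested). The *Slc2a1* and *Slc2a3* shares overlapped and did not pass (exact permutation p = 0.0873 and 0.3095). The *Slc2a4* share rests on the same few counts as its level.

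Of the heavy chain *Slc3a2* and its light chains only *Slc7a5* was called without the offset. *Slc7a5* (ENSMUSG00000040010, chr8:122607889-122634433) measured 71.0, 69.1, 65.8, 73.6 and 57.6 FPKM in si-Control and 50.8, 51.9, 46.4, 55.8 and 42.8 in si-*Fndc1*. The groups did not overlap, and replicate 5 was the lowest library of each. Its mean was 67.4 ± 6.17 in si-Control and 49.5 ± 5.02 in si-*Fndc1* (SD, n = 5 each), a ratio of 0.735 (exact permutation p = 0.007937). *Slc7a5* fell by 0.44 on the log2 scale (SE 0.081, adjusted p = 0.001965 in edgeR), the greatest fall among the 8 tested members. It was also called with the offset, at -0.31 (adjusted p = 0.01682), and in all 23 alternative analyses.

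*Slc3a2* (ENSMUSG00000010095, chr19:8684246-8700733), the partner without which LAT1 does not reach the surface, measured 46.7, 54.1, 38.3, 52.9 and 45.2 FPKM in si-Control. In si-*Fndc1* it measured 45.3, 42.6, 37.1, 51.1 and 37.0. The groups overlapped, with 2 of the si-*Fndc1* libraries below all si-Control libraries. The means were 47.4 ± 6.40 and 42.6 ± 5.92 (SD, n = 5 each; exact permutation p = 0.246), and the log2 fold change of -0.15 (SE 0.111, adjusted p = 0.3355 in edgeR) was not called in any of 23 alternatives.

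The ratio of *Slc3a2* to *Slc7a5* was compared directly. It was 0.657, 0.782, 0.582, 0.719 and 0.784 in si-Control and 0.891, 0.822, 0.799, 0.915 and 0.864 in si-*Fndc1*. Every si-*Fndc1* library was above every si-Control library (means 0.705 ± 0.0864 and 0.858 ± 0.0478, SD, n = 5 each; exact permutation p = 0.007937, adjusted p = 0.01852 over 7 ratios). The corresponding difference between the log2 fold changes was 0.29, and 0.20 with the offset. Against the FPKM of all its light chains together, the *Slc3a2* ratio was 0.595 ± 0.0676 and 0.683 ± 0.0536 (SD, n = 5 each), a difference that did not pass (exact permutation p = 0.05556, adjusted p = 0.07778), nor did it on TMM-scaled CPM (exact permutation p = 0.4048).

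**Figure D2:**
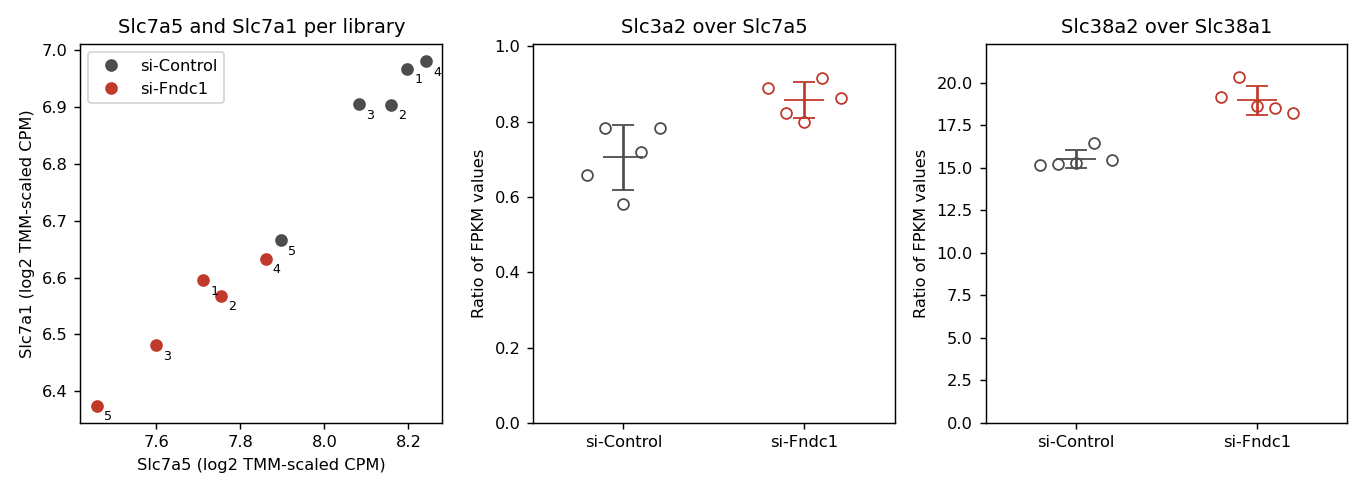
Left, log2 TMM-scaled CPM of Slc7a1 against Slc7a5 with 1 point per library, numbered by replicate; middle and right, the FPKM ratios of Slc3a2 to Slc7a5 and of Slc38a2 to Slc38a1 per library (circles) with mean and SD. The points of the left panel lie along a line in both groups (r = 0.989 over 10 libraries), and the si-Fndc1 libraries lie above all si-Control libraries in both ratios.

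Among the transcripts of the light chains, *Slc7a5* took 84.5% ± 1.23 in si-Control and 79.6% ± 3.46 in si-*Fndc1* (SD, n = 5 each). *Slc7a6*, which encodes y+LAT2, took 11.0% ± 0.666 and 12.9% ± 1.13. The light chain y+LAT1, encoded by *Slc7a7*, took 1.22% ± 0.222 and 1.37% ± 0.273. These shares were not tested. *Slc7a6* itself measured 8.73 ± 0.564 FPKM in si-Control and 8.01 ± 0.265 in si-*Fndc1* and was not called (adjusted p = 0.09413 in edgeR), although it was called lower with the offset, at -0.18 (adjusted p = 0.02021). *Slc7a7* was not called (adjusted p = 0.3146 in edgeR). *Slc7a8* and *Slc7a10*, the other light chains of this heavy chain, had at most 13 and 0 counts in a library.

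*Slc7a11* (ENSMUSG00000027737, chr3:49846975-50398063) was the most variable of the tested transporters. It measured 1.22, 3.19, 2.88, 3.15 and 2.82 FPKM in si-Control and 0.541, 2.22, 5.26, 5.85 and 5.17 in si-*Fndc1*. Of the si-*Fndc1* libraries 3 lay above all si-Control libraries and replicate 1 lay below all of them, so that the group spanned 10.8-fold, against 2.61-fold in si-Control. The counts behind these values ran from 593 to 6512, so the spread is far above counting error. The log2 fold change of 0.53 had an SE of 0.513 and was not called (adjusted p = 0.4592 in edgeR; exact permutation p = 0.3333 for the FPKM means of 2.65 ± 0.817 and 3.81 ± 2.31, SD, n = 5 each). Leaving out 1 library at a time moved the log2 fold change of *Slc7a11* between 0.32, when si-*Fndc1* replicate 4 was left out (adjusted p = 0.6916), and 0.81, when si-*Fndc1* replicate 1 was (adjusted p = 0.07993). It was 0.35 without replicate 1 of si-Control, and no such fit called it.

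*Slc7a1* (ENSMUSG00000041313, chr5:148264220-148336714) measured 9.73, 9.32, 9.35, 9.88 and 7.89 FPKM in si-Control and 7.53, 7.33, 6.86, 7.66 and 6.49 in si-*Fndc1*. The groups did not overlap, although si-Control replicate 5 came close to the highest si-*Fndc1* library. The means were 9.23 ± 0.787 and 7.18 ± 0.487 (SD, n = 5 each), a ratio of 0.777 (exact permutation p = 0.007937). *Slc7a1* fell by 0.36 on the log2 scale (SE 0.066, adjusted p = 0.001987 in edgeR). With the offset the call was lost at -0.12 (adjusted p = 0.2172).

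The level of *Slc7a1* followed that of *Slc7a5* from library to library more closely than any other tested gene did. Pearson's r between their log2 TMM-scaled CPM (counts scaled to library size) was 0.989 over the 10 libraries (Spearman's rho 0.976), 0.982 over the 8 libraries left without those farthest from the median of *Slc7a5*, and 0.970 and 0.972 within si-Control and si-*Fndc1*. Next were *Eif3d* (r = 0.970), encoding a translation initiation factor subunit, and *Shf* (r = 0.964), encoding an SH2 domain adapter, and 7 genes in all reached 0.95. These are the highest of many correlations and are given as a description. The points share their libraries, and *Slc7a5* and *Slc7a1* have a similar GC content of 56.2% and 55.3%. For *Slc2a4* the closest were *Clasrp* (r = 0.968), *Cspg4* (r = 0.963) and *Ift122* (r = 0.961), over the same 10 libraries. With the group means removed, r was 0.919, 0.908 and 0.929. *Slc2a4* had only 15 to 88 counts per library, and these too are the highest of many correlations.

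Among the glutamine carriers *Slc1a5* and *Slc38a1* were called lower without the offset, and *Slc38a2* was not called. *Slc1a5* (ENSMUSG00000001918, chr7:16515265-16532199) measured 3.68, 3.54, 3.74, 3.59 and 3.23 FPKM in si-Control and 3.04, 2.90, 3.01, 2.97 and 2.72 in si-*Fndc1*. The groups did not overlap, and the spread within each was narrow (3.56 ± 0.198 and 2.93 ± 0.128, SD, n = 5 each; ratio 0.824, exact permutation p = 0.007937). *Slc1a5* fell by 0.27 on the log2 scale (SE 0.058, adjusted p = 0.004239 in edgeR), a call that was lost with the offset at -0.14 (adjusted p = 0.08376). Its ratio to *Slc7a5*, which exports the glutamine that ASCT2 brings in, was 0.0529 ± 0.00340 and 0.0595 ± 0.00499 (SD, n = 5 each) and did not pass after adjustment (exact permutation p = 0.04762, adjusted p = 0.07778 over 7 ratios).

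*Slc38a1* (ENSMUSG00000023169, chr15:96469299-96540280) measured 4.09, 3.45, 3.85, 3.93 and 3.91 FPKM in si-Control and 3.39, 3.22, 3.09, 3.12 and 3.14 in si-*Fndc1*. The groups did not overlap, with si-Control replicate 2 just above the highest si-*Fndc1* library. The means were 3.85 ± 0.240 and 3.19 ± 0.119 (SD, n = 5 each), a ratio of 0.830 (exact permutation p = 0.007937). *Slc38a1* fell by 0.26 on the log2 scale (SE 0.047, adjusted p = 0.001588 in edgeR). With the offset its log2 fold change was -0.13, and the call held (adjusted p = 0.01954).

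*Slc38a2* (ENSMUSG00000022462, chr15:96585273-96597611), the carrier that cells are known to induce when amino acids are short, measured 61.9, 52.5, 58.8, 64.8 and 60.5 FPKM in si-Control. In si-*Fndc1* it measured 64.9, 65.6, 57.6, 57.7 and 57.2. The groups overlapped over most of their range, and the means of 59.7 ± 4.61 and 60.6 ± 4.27 (SD, n = 5 each) gave an exact permutation p of 0.746. Its log2 fold change of 0.03 (SE 0.062, adjusted p = 0.7541 in edgeR) became -0.07 with the offset, so no direction can be given.

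*Slc38a2* lies 44992 bases from *Slc38a1* on the same strand of chromosome 15. The ratio of *Slc38a2* to *Slc38a1* was 15.1, 15.2, 15.3, 16.5 and 15.5 in si-Control and 19.2, 20.4, 18.6, 18.5 and 18.2 in si-*Fndc1*. The groups did not overlap (means 15.5 ± 0.550 and 19.0 ± 0.851, SD, n = 5 each; exact permutation p = 0.007937, adjusted p = 0.01852 over 7 ratios). The corresponding difference between their log2 fold changes was 0.29 and shrank to 0.06 with the offset. Their GC contents are 43.7% for *Slc38a2* and 48.3% for *Slc38a1*, and the part of base composition in the ratio was not tested further.

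**Figure D3:**
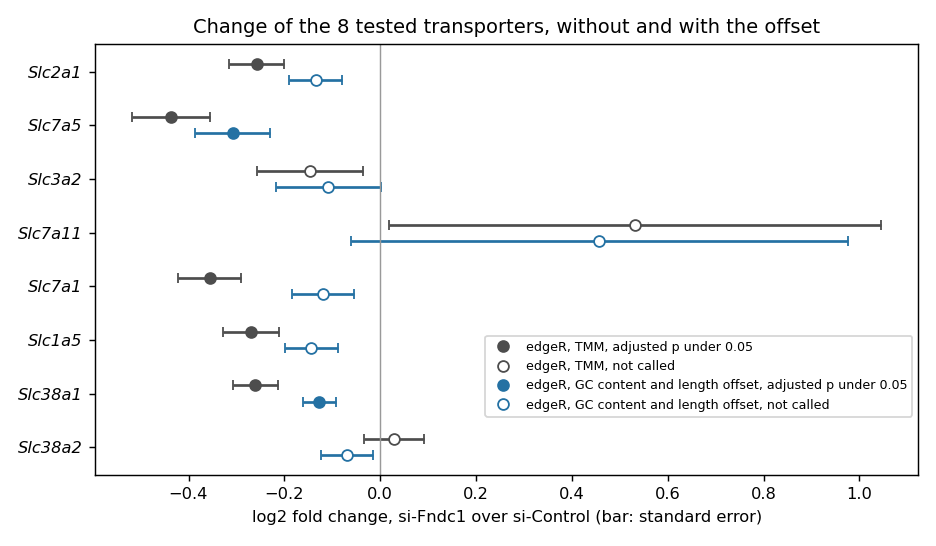
log2 fold change of si-Fndc1 over si-Control with its standard error for the 8 tested transporters, in edgeR without (grey) and with (blue) an offset for GC content and the length implied by counts and FPKM. Filled points have an adjusted p under 0.05. Without the offset 5 transporters are filled, and with it Slc7a5 and Slc38a1 are.

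Of 12 other glucose and related hexose or inositol carriers, 5 were tested. Without the offset, the calls of this list and of those below stand beside 17.2% of all tested genes called lower and 17.3% called higher. With the offset they stand beside 2642 genes called of 11185 fitted. Of these 1366 were lower, which is 12.2% of the genes fitted. *Slc2a6*, encoding GLUT6, fell from 18.6 ± 1.12 FPKM to 15.9 ± 0.432 (SD, n = 5 per group), at an adjusted p of 0.003151 in edgeR and a log2 fold change of -0.22. *Slc2a13*, encoding the myo-inositol carrier HMIT, rose from 0.517 to 0.623 FPKM (adjusted p = 0.03584). With the offset 0 of the 5 were called in edgeR, and *Slc2a6* was at -0.05 and *Slc2a13* at 0.19 (adjusted p = 0.464 and 0.1584).

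Of 32 other amino acid carriers 15 were tested, and 5 were lower, 0 higher and 10 not called, with a median log2 fold change of -0.17. Among all tested genes 34.4% were called, 17.2% lower and 17.3% higher. Those that fell were *Slc1a4* (ASCT1, a carrier of alanine, serine and cysteine), *Slc6a9* (the glycine carrier GLYT1), *Slc38a10*, *Slc6a6* (the taurine carrier) and *Slc38a7*. *Slc6a9* fell from 12.8 ± 1.53 FPKM to 9.29 ± 0.393 (SD, n = 5 per group), at an adjusted p of 0.001264 in edgeR and a log2 fold change of -0.45. *Slc1a4* fell from 21.5 ± 0.448 to 19.1 ± 0.485 FPKM (log2 fold change -0.17, adjusted p = 0.001483) and *Slc38a10* from 26.2 to 21.3 FPKM (log2 fold change -0.29, adjusted p = 7.0e-05). With the offset 4 were lower (*Slc1a4*, *Slc6a6*, *Slc6a9* and *Slc7a6*) and *Slc38a6* was higher, and *Slc38a10* was not called (adjusted p = 0.1137). Of all genes fitted that way 12.2% were called lower. *Slc7a2*, the cationic carrier CAT2, was not called at 4.91 ± 1.15 and 6.39 ± 0.435 FPKM (SD, n = 5 each; adjusted p = 0.05526).

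Of 20 genes of GLUT4 storage and the insulin signal 18 were tested, with 6 lower, 2 higher and 10 not called (median -0.08). Calls over all tested genes were 17.2% lower and 17.3% higher. *Irs1*, encoding an adapter of the insulin receptor, fell from 15.6 to 13.2 FPKM (log2 fold change -0.23, adjusted p = 0.002281 in edgeR) and held with the offset (-0.16, adjusted p = 0.008548). *Myo1c*, a myosin that helps to bring GLUT4 vesicles to the membrane, fell from 84.9 to 72.7 FPKM (log2 fold change -0.22, adjusted p = 0.000269), a call that was lost with the offset (-0.03). *Stxbp3*, encoding the syntaxin-binding protein Munc18c, rose from 4.88 to 6.09 FPKM (log2 fold change 0.33, adjusted p = 0.001041) and held with the offset (0.17, adjusted p = 0.0372). *Snap23* rose from 12.6 to 14.0 FPKM, which did not hold with the offset (0.01). With the offset 4 genes of the list were lower (*Irs1*, *Lnpep*, *Stx4a* and *Rab10*) and *Stxbp3* was higher, where 12.2% of all genes fitted were called lower.

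Among 10 transcription factors and cofactors known to act on *Slc2a4*, 8 were tested, 4 were lower (*Hdac5*, *Nr4a1*, *Esrra* and *Mef2d*) and *Myod1* was higher. Over all tested genes 17.2% were called lower and 17.3% higher. *Hdac5*, a histone deacetylase that represses *Slc2a4*, fell from 11.5 to 9.25 FPKM (log2 fold change -0.31, adjusted p = 0.00011 in edgeR), and *Nr4a1*, an orphan nuclear receptor, from 4.22 to 3.19 FPKM (log2 fold change -0.40, adjusted p = 0.00889). *Myod1*, the myogenic regulator, rose from 41.9 to 46.7 FPKM (log2 fold change 0.16, adjusted p = 0.01616). With the offset none of the 4 was called lower in edgeR (*Hdac5* 0.04, *Nr4a1* -0.25, *Esrra* 0.05 and *Mef2d* -0.04), and *Myod1* and *Thra* were higher.

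Of 28 genes of the ATF4 response to amino acid shortage 27 were tested, and 4 were lower, 1 higher and 22 not called, a called share below the 34.4% of all tested genes. *Aldh18a1*, which starts proline synthesis, fell from 22.2 to 18.1 FPKM (log2 fold change -0.29, adjusted p = 0.001705 in edgeR). *Trib3*, *Sesn2* and *Gdf15* were also lower, and *Asns*, asparagine synthetase, was higher at 26.2 and 31.9 FPKM (log2 fold change 0.30, adjusted p = 0.02557). *Atf4* itself was at 105.4 ± 15.8 and 92.1 ± 8.15 FPKM (SD, n = 5 each) and was not called (adjusted p = 0.1596). With the offset these 5 calls were lost, and *Eif2ak3* and *Nupr1* were called higher.

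Of 15 genes of glucose and oxygen sensing 13 were tested, and 4 were higher (*Hif1a*, *Mlx*, *Bnip3* and *Pdk1*) and 2 lower (*Hk2* and *Ldha*). The shares over all tested genes were 17.3% higher and 17.2% lower. *Hif1a*, encoding the oxygen-regulated subunit of HIF-1, rose from 28.7 ± 0.522 FPKM to 34.8 ± 1.32 (SD, n = 5 per group), at an adjusted p of 8.9e-05 in edgeR and a log2 fold change of 0.29, and held with the offset (0.11, adjusted p = 0.02591). *Mlx*, the partner of the glucose-sensing factors ChREBP and MondoA, rose from 8.33 to 10.8 FPKM (log2 fold change 0.38, adjusted p = 0.001591) and held as well (0.29, adjusted p = 0.01318). *Bnip3*, a mitophagy receptor, rose from 30.7 to 40.4 FPKM, and *Hk2*, the hexokinase that traps glucose in muscle, fell from 19.8 to 16.6 FPKM (log2 fold change -0.25, adjusted p = 0.00472). Neither held with the offset (adjusted p = 0.3459 and 0.05057), while *Egln1* was called higher. *Slc2a1* and *Hk2* were called lower, and *Bnip3* and *Pdk1* higher, only without the offset, whereas *Hif1a* was called higher with and without it. A relation between these genes was not tested.

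**Figure D4:**
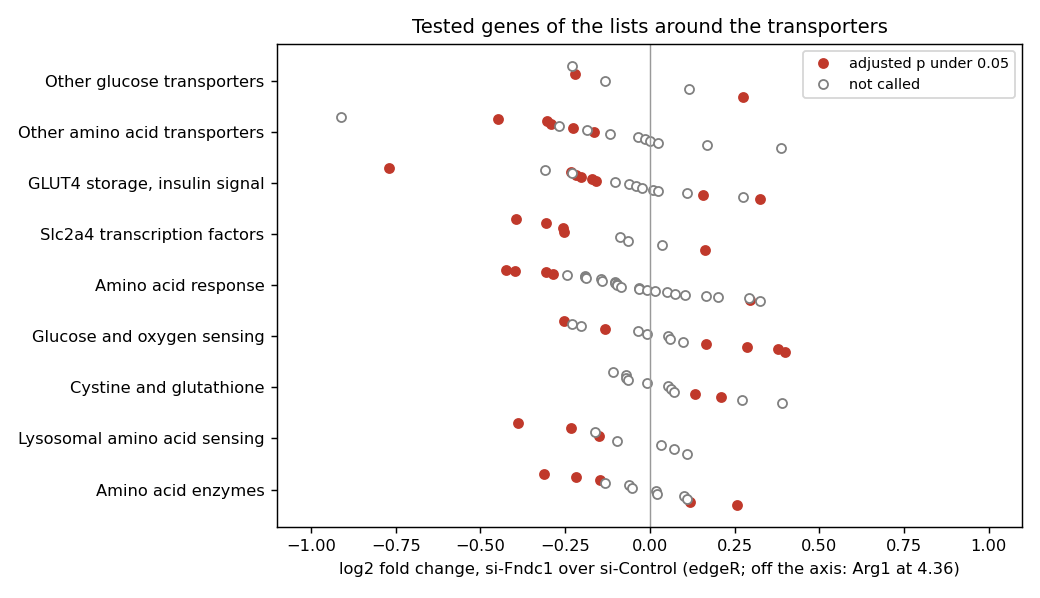
log2 fold change of si-Fndc1 over si-Control for the tested genes of 9 lists around the transporters, 1 point per gene, filled where the adjusted p in edgeR was under 0.05. Calls in the other amino acid transporter list all lie below 0, and those of the glucose and oxygen sensing list lie on both sides; Arg1, at 4.36, is off the axis.

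All 12 genes of cystine and glutathione handling were tested, with 2 higher (*Nfe2l2*, which encodes NRF2, and *Hmox1*), 0 lower and 10 not called. For this list and the next ones, 17.2% of all tested genes were called lower and 17.3% higher. *Hmox1*, heme oxygenase, rose from 27.3 to 31.4 FPKM (log2 fold change 0.21, adjusted p = 0.01467 in edgeR), a call that was lost with the offset (adjusted p = 0.05123), where *Keap1* alone was higher. Of 8 genes of lysosomal amino acid sensing, all tested, 3 were lower (*Slc66a1*, *Sesn3* and *Castor2*). *Slc66a1*, the lysosomal exporter of lysine and arginine, fell from 2.25 to 1.71 FPKM (log2 fold change -0.39, adjusted p = 0.004737) and was also lower with the offset (-0.27, adjusted p = 0.035). Of 15 enzymes that use the transported amino acids 13 were tested, with 3 lower (*Bcat1*, *Bcat2* and *Bckdha*) and 3 higher (*Got2*, *Odc1* and *Arg1*). The 3 lower ones encode enzymes of branched-chain amino acid breakdown, and none was called with the offset (adjusted p = 0.1952, 0.3634 and 0.3117 in edgeR). *Dbt* and *Bckdk*, which act in the same breakdown, were not called at log2 fold changes of 0.10 and -0.06 (adjusted p = 0.3973 and 0.2957). With the offset *Glul*, *Got2* and *Arg1* were higher.

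The counts of *Arg1*, liver arginase, ran from 0 to 18 in si-Control but from 61 to 272 in si-*Fndc1* (log2 fold change 4.36, adjusted p = 0.001051 in edgeR). Transcripts of hepatocytes, a cell type the labels do not name, were also higher in si-*Fndc1*. All 13 hepatocyte markers were higher in si-*Fndc1* without overlap, with a summed level of 0.0455 to 5.69 FPKM in si-Control, against 50.1 to 175.4 in si-*Fndc1*, and the 12 tested were called higher. *Alb*, encoding albumin, was at 0.0001 to 2.83 FPKM in si-Control, against 12.1 to 60.8 in si-*Fndc1*. Of 7 carriers of hepatocytes 6 were higher without overlap, and these 6 were below the filter on low levels and had no call. The share of all genes that were higher without overlap was not computed. *Slc2a2*, encoding the hepatocyte carrier GLUT2, had 0 counts in every si-Control library and 28, 48, 36, 56 and 12 in si-*Fndc1*. *Slc38a4*, the neighbour of *Slc38a2* 295089 bases away, had 8, 0, 8, 0 and 4 counts in si-Control and 72, 147, 140, 158 and 36 in si-*Fndc1*, and *Slc38a3* had 0, 0, 8, 0 and 20 against 144, 178, 197, 201 and 90. The source of these transcripts and a relation to the levels of the 10 transporters were not tested.

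**Figure D5:**
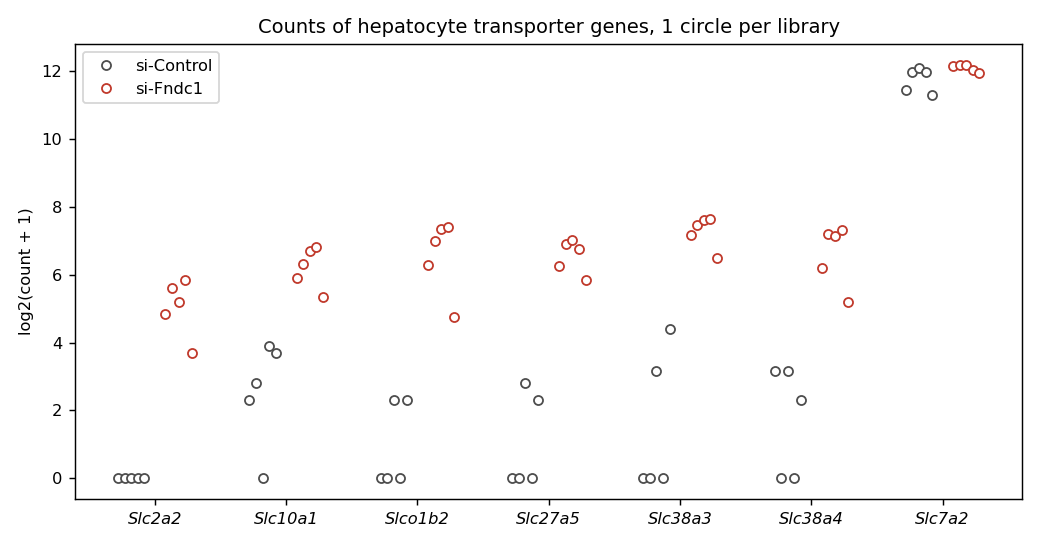
Counts of 7 transporter genes of hepatocytes on the scale log2(count + 1), with 1 circle per library in si-Control (grey) and si-Fndc1 (red). The groups overlap for Slc7a2 and are apart for the other 6 genes, of which Slc2a2 is at 0 counts in every si-Control library.

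Each adipocyte, blood and dividing myoblast marker overlapped between the groups. The 5 adipocyte markers were at 0 counts in every library except for 1 gene, with a summed level of at most 0.0201 FPKM. The 5 blood markers summed to 0.700 to 1.85 FPKM in si-Control, against 1.35 to 2.63 in si-*Fndc1*. Among them *Hbb-bs*, encoding a hemoglobin chain, had 0 to 1 counts in si-Control, against 0 to 36 in si-*Fndc1*. The 7 markers of dividing myoblasts summed to 47.7 to 50.3 and 45.1 to 52.4 FPKM, with *Cdk1* called higher and 6 not called. With the offset *Cdk1* stayed higher, and *Pcna* and *Myf5* were called lower (-0.315 and -0.224, adjusted p = 0.004515 and 0.01295 in edgeR). Of the 10 myotube markers 2 were higher (*Ckm*, muscle creatine kinase, from 66.3 to 86.2 FPKM, adjusted p = 0.000201 in edgeR, and *Mymk*), 3 lower (*Casq2*, the calsequestrin of slow and cardiac muscle, from 289.9 to 254.4 FPKM, adjusted p = 0.001094, *Mymx* and *Atp2a1*) and 5 not called. With the offset *Ckm* alone was higher and 3 were lower (*Casq2*, *Mymx* and *Myog*). The calls of *Mymk* and *Atp2a1* were lost there (adjusted p = 0.1649 and 0.1507 in edgeR).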

How the data were processed

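Reads of 10 RNA libraries were counted per gene by the authors, who deposited whole-number counts and, beside each count, an FPKM value, listed as 0.0001 where the count is 0. The submitters' processing notes name cutadapt 1.9, FastQC and GRCm39. The paper names TopHat, mm10 and htseq-count, the series description STAR and mm9, and these sources also differ in time point. The labels and the paper differ in transfection reagent. Strand setting and FPKM formula are not given in the sources used here. The paper's methods name fewer libraries, and all 10 were used, grouped by label. No column of per-library values was left without a sample (0 columns).

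Counts were tested with edgeR 4.0.16 (quasi-likelihood, TMM) in R 4.3.3 for genes whose FPKM averaged 0.5 or more, with Benjamini-Hochberg adjustment over all of them. DESeq2 1.42.0 and limma 3.58.1 were run as alternatives. Single levels and ratios were compared by two-sided exact permutation tests written in Python 3.11.15, and scipy 1.17.1 was used to adjust the p-values of the ratios. The offset was fitted per library with splines of 5 degrees of freedom on GC content of NCBIM37 transcripts and on length. This length was not taken from an annotation. It was implied by the deposited values, as the median over libraries of count over library total and FPKM. The fits were tested on simulated data. The labels do not say that libraries came from separate cultures. The paper states in general that its experiments were repeated independently, without naming these libraries. The p-values therefore compare the group difference with the spread between libraries, whatever their source.

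The transporters and all gene lists were chosen with earlier results of these data known. Named are the 10 transporters, *Fndc1*, and from each list at most 4 genes with the smallest p among those with an adjusted p under 0.05, groups that do not overlap and a mean FPKM of at least 1, plus light chains, *Slc38a4* and the 3 closest correlates of *Slc2a4* and *Slc7a5*. Other genes were named after their values were seen, to complete a count or describe a marker. Overlapping genes held at most 0.2032% of the counts of a transporter (*Slc7a11*). 1 list gene is not reported here.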

Additional observations from a re-analysis of the deposited data

Results flagged for a closer look

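Among 34 groups of 5 libraries examined for a library far from the rest, 3 held one, and chance alone gives about 1 in 20 groups. For *Slc7a11*, si-Control replicate 1 was at 1.22 FPKM, and the nearest other si-Control library was at 2.82. The gap is 0.813 of the range of the group, above the critical value of 0.71. For *Slc7a1*, si-Control replicate 5 was at 7.89 FPKM and the nearest at 9.32 (0.716 of the range). For the ratio of *Slc38a2* to *Slc38a1*, si-Control replicate 4 was at 16.5 and the nearest at 15.5 (0.768 of the range). Without these libraries the calls of *Slc7a1* and of the ratio held.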

How the results depend on the processing

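The falls of *Slc7a5* (-0.49 to -0.31 on the log2 scale) and *Slc38a1* (-0.30 to -0.13) were called under every alternative run. *Slc2a1*, *Slc7a1* and *Slc1a5* were called under all alternatives without the offset for GC content and length and under none with it, in which they were at -0.135, -0.119 and -0.144 with the offset alone, at -0.137, -0.117 and -0.143 with the offset and the replicate number as a block, at -0.139, -0.122 and -0.146 with the offset fitted on gene-centred counts (added after the data were seen), and at -0.141, -0.119 and -0.146 with that and the block. In these 4 settings 2 members were called, 2642, 1749, 2661 and 1761 genes in all, and 22, 12, 24 and 12 of the genes of the 9 lists. Without the offset the figures were 5, 4663 and 42, and 4244 among the same genes as in the offset fit. With a mean FPKM of at least 5, 3 members were called because *Slc1a5* and *Slc38a1* were no longer tested. *Slc38a2*, never called, turned to -0.022 in limma on quantile-normalized values and to -0.069, -0.069, -0.066 and -0.066 in the 4 offset settings. Leaving out 1 library at a time, *Slc38a2* ran from -0.015 to 0.059 in edgeR and from -0.021 to 0.053 as log2 ratio of mean FPKM, and that of *Slc2a3* from -0.009 to 0.49, while all 5 members stayed called and 4000 to 4627 genes were called in all. The *Slc2a4* difference missed the threshold in edgeR without a filter (-1.002, adjusted p = 0.05054; added after the data were seen). The ratio of *Slc3a2* to its light chains ran from 0.139 to 0.239 on the log2 scale when a library was left out, with exact permutation p of 0.03175 to 0.119, and was 0.113 (p = 0.4048) on TMM-scaled CPM. The ratio of *Slc1a5* to *Slc7a5* ran from 0.135 to 0.206, with p of 0.03968 to 0.09524. The *Slc2a1* share passed without si-Control replicate 2 (p = 0.007937 by exact permutation). Across all tested genes the same replicate numbers did not pair the libraries (correlations of -0.055 to 0.064, and 2 of 10 libraries closest to their own number). Single members differed in this. With the replicate number as a block the SE was 0.034 instead of 0.081 for *Slc7a5*, 0.036 instead of 0.066 for *Slc7a1* and 0.061 instead of 0.111 for *Slc3a2*. It was larger for *Slc38a1* (0.049 instead of 0.047) and *Slc38a2* (0.071 instead of 0.062). *Slc3a2* was not called with the block (adjusted p = 0.1206 in edgeR). With the replicate number as a block 5 members and 3572 genes were called, and *Slc7a11* was at 0.225 (0.146 with the offset and the block). In limma on log2 FPKM with 1 or 0.1 added it was at 0.24 and 0.206, and at 0.235 after quantile normalization. It was not called under any alternative. The causes were not tested. *Slc2a3* and *Slc2a4* rest on 15 to 88 counts per library.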
